A study of Mus musculus with 20 samples.

Results

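The Toll-like receptors are the 10 genes Tlr1, Tlr2, Tlr3, Tlr4, Tlr5, Tlr6, Tlr7, Tlr8, Tlr9 and Tlr13, chosen by gene name from the 45705 genes of the expression table. The rule used no measured value, but earlier results of these data were known when the set was chosen. RNA sequencing was performed on neural stem cells (NSCs) and 4 intermediate progenitor populations sorted from the periventricular tissue of neonatal Swiss Webster mice, P5 pups of both sexes, with whole litters pooled. Each population was collected in 4 numbered batches, which gives 20 libraries. No treatment or genetic change was applied to any group. The sort used 4 surface antigens, CD133 (encoded by Prom1), the carbohydrate LeX (CD15), CD140a (encoded by Pdgfra) and NG2 (encoded by Cspg4). The NSC gate took cells positive for CD133 and LeX and negative for the other 2 antigens. BNAP/GRP1 cells carried NG2 and LeX, GRP2/MP3 cells NG2 alone, GRP3 cells CD140a and NG2, and PFMPs CD140a, NG2 and LeX, and all 4 progenitors were negative for CD133. The study describes no step in the sort to select or exclude blood or microglial cells. The study asked how each progenitor differs from NSCs and how the progenitors differ from each other.

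Toll-like receptors are membrane proteins of innate immunity that recognise conserved molecules of microbes through a leucine-rich ectodomain and signal through a cytoplasmic TIR domain. Tlr1, Tlr2, Tlr4, Tlr5 and Tlr6 act at the cell surface on lipopeptides, lipopolysaccharide and flagellin, whereas Tlr3, Tlr7, Tlr8, Tlr9 and Tlr13 act in endosomes on nucleic acids. All of them except Tlr3 signal through the adaptor Myd88, while Tlr3 uses Ticam1 and Tlr4 uses both. In the brain these receptors are best known from microglia, the resident macrophages.

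Promoter sequence is shown for 4 of the receptors, Tlr1, Tlr2 and Tlr13, which stood high in the BNAP/GRP1 and GRP2/MP3 libraries of batches 1 and 2, and Tlr9, which was at or near 0 in those 4 libraries. Each window runs from 250 bases before to 50 bases after the start in the RefSeq annotation of GRCm38.p6. A window was found for 8 of the 10 genes. Capitals mark GAGGAA or its reverse complement TTCCTC, a purine-rich sequence bound by the myeloid transcription factor PU.1.
Tlr1 chr5:64933509-64933808 (minus strand): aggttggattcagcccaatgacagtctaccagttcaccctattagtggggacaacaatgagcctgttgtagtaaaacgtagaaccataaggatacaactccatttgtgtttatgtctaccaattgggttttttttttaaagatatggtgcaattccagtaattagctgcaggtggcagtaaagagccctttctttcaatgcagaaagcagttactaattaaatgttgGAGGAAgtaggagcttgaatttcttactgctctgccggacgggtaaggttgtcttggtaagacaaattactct
Tlr2 chr3:83841559-83841858 (minus strand): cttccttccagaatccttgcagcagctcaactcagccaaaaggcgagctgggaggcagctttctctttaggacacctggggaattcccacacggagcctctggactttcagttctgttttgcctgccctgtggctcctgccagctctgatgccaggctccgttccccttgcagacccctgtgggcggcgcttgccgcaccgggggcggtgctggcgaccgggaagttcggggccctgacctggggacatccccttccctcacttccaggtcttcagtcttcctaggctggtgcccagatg
Tlr13 chrX:106143025-106143324 (plus strand): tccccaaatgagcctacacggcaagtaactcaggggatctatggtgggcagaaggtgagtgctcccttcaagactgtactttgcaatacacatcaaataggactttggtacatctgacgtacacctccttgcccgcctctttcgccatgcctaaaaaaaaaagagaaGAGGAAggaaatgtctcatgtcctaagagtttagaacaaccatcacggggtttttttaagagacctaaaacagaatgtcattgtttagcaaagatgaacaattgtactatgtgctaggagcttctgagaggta
Tlr9 chr9:106222348-106222647 (plus strand): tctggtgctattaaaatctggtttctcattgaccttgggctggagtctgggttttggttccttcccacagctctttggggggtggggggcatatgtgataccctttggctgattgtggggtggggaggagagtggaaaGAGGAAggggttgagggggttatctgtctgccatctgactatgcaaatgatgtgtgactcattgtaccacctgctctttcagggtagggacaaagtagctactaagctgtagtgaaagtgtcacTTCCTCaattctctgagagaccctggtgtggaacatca
Both strands were searched for this exact motif and for no other, so a window without capitals is not shown to lack other PU.1 sites. The motif was present in a window of 4 of the 8 genes, Tlr1, Tlr8, Tlr9 and Tlr13, and was not found in those of Tlr2, Tlr3, Tlr5 and Tlr6. Counted by window, it occurred in 4 of the 10 windows of these genes and in 28.3% of all 32851 promoter windows of the same length. A further window of Tlr1, not printed, did not hold it. The printed Tlr1, Tlr2 and Tlr13 windows do not all hold it.

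The values are RPKM, read numbers divided by the length of the gene and by the size of the library. Genes of the same library can be set beside each other, but RPKM does not make libraries fully comparable. All genes summed to 955067 RPKM in GRP2/MP3 of batch 2 and to 2.41e+06 RPKM in BNAP/GRP1 of batch 2. The median over all genes was 0 RPKM in each library of batch 3 and 8.30 RPKM in BNAP/GRP1 of batch 4. Fold changes are on the scale of log2(RPKM + 1), which understates the change of low genes, and p-values are those of limma's moderated test, two-sided and adjusted over the 27614 genes that reached 1 RPKM in 4 or more libraries. All 10 receptors passed that filter. Counts of receptors or pathway genes at an unadjusted p under 0.05 are given without the share of all genes. They are therefore a description and not a result about these genes. Replicates are the separate batches. Read totals are not part of the table, so no counting interval can be attached to a value. In sorted bulk RNA, more cells of a type and more RNA per cell cannot be told apart.

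Libraries differed in ways that bear on every value. In batch 3 the 5 libraries were close in the receptor levels and in several marker lists whatever their label, but they were not alike in all genes. The ependymal genes summed to 1465 RPKM in NSC of batch 3 and to 3.72 to 5.79 RPKM in the 4 progenitors of that batch. Prom1 was also highest in that NSC library, and the progenitors of batch 3 held at most 1.36 RPKM. The genes of the other sorting antigens were low there. Pdgfra was 3.41 RPKM in GRP3 and 3.84 RPKM in PFMP of batch 3, against 96.9 to 803 RPKM in those 2 populations of the other batches, and Cspg4 was at most 0.398 RPKM. The batch 3 libraries also carried genes of lung tissue, with Scgb1a1, a secretory protein of airway epithelium, at 839 to 965 RPKM and Marco, a scavenger receptor of alveolar macrophages, at 78.8 to 87.7 RPKM. In batch 4, Prom1 was 9.56 RPKM in NSC and 11.2 to 35.5 RPKM in the 4 progenitors. In batches 1 and 2 it was 84.2 and 46.1 RPKM in NSC and at most 14.1 RPKM in the progenitors. The ependymal genes still set NSC of batch 4 apart, at 12108 RPKM against 77.6 to 572 RPKM in the progenitors of that batch. The median RPKM of the 1257 olfactory receptor genes in batch 4 was 7.84 in BNAP/GRP1 and 0 to 1.57 in the other 4 libraries, against at most 0.105 in batches 1 to 3. In batch 4, Tlr2 lay above 33.5% of these genes in GRP3 and 40.7% in NSC, against 98.2% in GRP2/MP3 and 99.8% in PFMP. Results are therefore given with and without batch 3, and the batch 4 values of BNAP/GRP1 are set beside that background. The part of these features in the receptor values was not tested.

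The summed level of the 10 receptors differed between batches and, in batches 1 and 2, between populations. It was 328 to 382 RPKM in all 5 libraries of batch 3. The sum was 103 and 27.1 RPKM in BNAP/GRP1 and 75.5 and 86.0 RPKM in GRP2/MP3 of batches 1 and 2, against 1.22 to 4.58 RPKM in NSC, GRP3 and PFMP of those batches. In batch 4, it ran from 6.42 RPKM in PFMP to 86.2 RPKM in BNAP/GRP1. BNAP/GRP1 and GRP2/MP3 were thus the populations with most Toll-like receptor RNA in batches 1 and 2. The batch 4 sum of BNAP/GRP1 was the highest of its batch but is not read in this way. In that library the median was 8.30 RPKM over all genes and 7.84 RPKM over the olfactory receptor genes. A sum over 10 genes there is not set apart from that background.

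**Figure D1:**
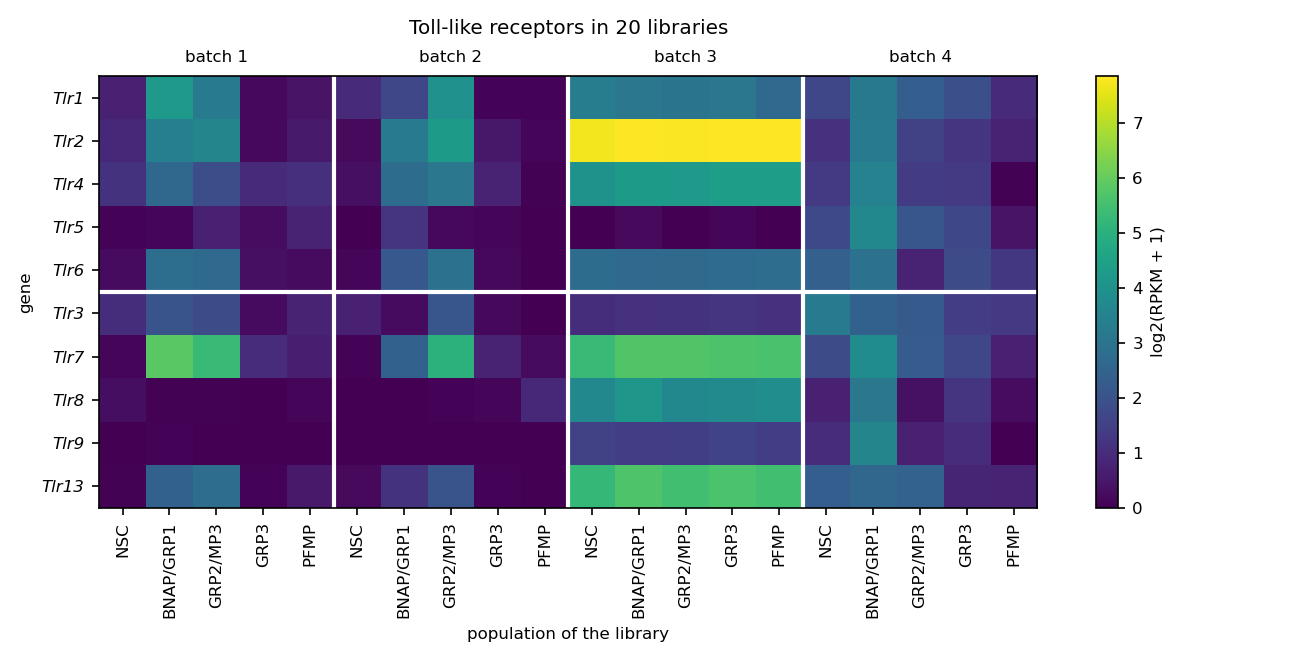
Level of each Toll-like receptor as log2(RPKM + 1), shown by colour, with genes in rows (cell surface receptors above the white line, endosomal receptors below) and the 20 libraries in columns by batch and population. In batches 1 and 2 the receptors other than Tlr3, Tlr5, Tlr8 and Tlr9 were high in BNAP/GRP1 and GRP2/MP3 only, and in batch 3 Tlr2, Tlr7 and Tlr13 were high in all 5 libraries.

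Among the surface receptors, Tlr2 senses bacterial lipopeptides as a dimer with Tlr1 or Tlr6. It lies on chromosome 3 (GRCm38, 83836272 to 83841767, minus strand), and its mean of 59.2 RPKM over the 20 libraries was the highest of the 10. In batches 1 to 4, Tlr2 was 9.41, 8.68, 228 and 8.19 RPKM in BNAP/GRP1. It was 11.2, 18.4, 223 and 1.88 RPKM in GRP2/MP3. Both populations lay at 8.68 RPKM or more in batches 1 and 2, and GRP2/MP3 fell below BNAP/GRP1 in batch 4. In GRP3, Tlr2 was 0.126, 0.413, 231 and 1.32 RPKM, in PFMP 0.475, 0.0969, 231 and 0.681 RPKM, and in NSC 0.838, 0.142, 208 and 1.16 RPKM. Outside batch 3 these 9 libraries all lay below the 6 of BNAP/GRP1 and GRP2/MP3, whose lowest was 1.88 RPKM. In batch 3 the 5 populations differed little, from 208 to 231 RPKM.

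Tlr1 and Tlr6, the partners of Tlr2, are neighbours on the minus strand of chromosome 5 (64924679 to 64933563 and 64952031 to 64960097), 18467 bases apart. Tlr1 was 17.8, 2.16, 7.75 and 8.02 RPKM in BNAP/GRP1 and 8.55, 14.6, 7.12 and 4.14 RPKM in GRP2/MP3. It was 0.114, 0.0575, 7.67 and 2.78 RPKM in GRP3, 0.321, 0.0597, 5.47 and 0.906 RPKM in PFMP, and 0.666, 0.920, 8.89 and 2.16 RPKM in NSC. Tlr1 in batch 3, at 5.47 to 8.89 RPKM, lay within the range of BNAP/GRP1 and GRP2/MP3 in batches 1 and 2, where Tlr2 in batch 3 lay far above it. Tlr6 was 6.19, 3.48, 5.4 and 6.83 RPKM in BNAP/GRP1 and 5.44, 6.68, 5.59 and 0.734 RPKM in GRP2/MP3. It was 0 to 0.247 RPKM in GRP3, PFMP and NSC of batches 1 and 2, 5.70 to 6.07 RPKM there in batch 3 and 1.44 to 4.28 RPKM in batch 4. In batch 4, GRP2/MP3 was the lowest of the 5 populations for Tlr6. The 2 genes share sequence, with 340 stretches of 75 bases present in both, which is 9.25% of those of Tlr6, so reads there could be assigned to either.

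Tlr4, the lipopolysaccharide receptor, lies on chromosome 4 (66827584 to 66930284, plus strand). It was 5.34, 5.80, 18.4 and 10.2 RPKM in BNAP/GRP1 and 2.68, 7.62, 17.8 and 1.60 RPKM in GRP2/MP3. Outside batch 3 it was at most 1.55 RPKM in GRP3, 1.07 RPKM in PFMP and 1.54 RPKM in NSC, and in batch 3 it was 15 to 19.9 RPKM in all populations. The lowest value of BNAP/GRP1 and GRP2/MP3 outside batch 3, 1.60 RPKM, was hardly above the highest of the other 3 populations. Tlr5, the flagellin receptor (chromosome 1, 182954788 to 182976044, plus strand), was low nearly throughout. It reached 1 RPKM in 5 of 20 libraries, was at 0 in 5, and was highest in BNAP/GRP1 of batch 4 at 11.7 RPKM, above 83.9% of the olfactory receptor genes of that library.

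Among the endosomal receptors, Tlr7, which senses single-stranded RNA, had the highest mean over the 20 libraries, 19.8 RPKM. It lies on the X chromosome (167304929 to 167330558, minus strand), 40599 bases from Tlr8 (167242696 to 167264329, minus strand). Tlr7 was 56.6, 4.38, 52.2 and 13.1 RPKM in BNAP/GRP1. It was 38.4, 32.1, 52.4 and 3.87 RPKM in GRP2/MP3. In batch 3 all 5 libraries held 38.8 to 52.4 RPKM, a range close to the batch 1 values of BNAP/GRP1 and GRP2/MP3. Outside batch 3, Tlr7 was 1.01, 0.702 and 2.22 RPKM in GRP3, 0.576, 0.165 and 0.637 RPKM in PFMP, and 0.108, 0.0465 and 2.58 RPKM in NSC. None of these 9 values reached the lowest of BNAP/GRP1 and GRP2/MP3.

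Tlr13, which in mice senses bacterial ribosomal RNA, lies on the X chromosome (106143204 to 106160493, plus strand). It was 4.48, 1.21, 50.7 and 5.0 RPKM in BNAP/GRP1 and 5.98, 3.08, 43.9 and 4.55 RPKM in GRP2/MP3. Outside batch 3 it was 0.0533, 0.0472 and 0.750 RPKM in GRP3, 0.465, 0.0147 and 0.703 RPKM in PFMP, and 0.0387, 0.142 and 4.08 RPKM in NSC. The NSC library of batch 4 thus lay among the BNAP/GRP1 and GRP2/MP3 values, and the other 8 lay below them. In batch 3, Tlr13 was 36.7 to 50.7 RPKM.

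Tlr3, Tlr8 and Tlr9 showed other patterns. Tlr3, the receptor for double-stranded RNA (chromosome 8, 45395665 to 45411080, minus strand), was highest in NSC of batch 4 at 8.41 RPKM. In batch 3 it was 1.04 to 1.33 RPKM, and in BNAP/GRP1 it was 3.08, 0.181, 1.18 and 4.43 RPKM. Of the 75-base stretches of Tlr3, 4.28% occur also in Gm45542, a gene on the opposite strand, so those reads cannot be placed without strand. Tlr8, a receptor for RNA degradation products, was 11.7 to 16.7 RPKM in the 5 libraries of batch 3. It was at most 0.841 RPKM in any population of batches 1 and 2, so the libraries of BNAP/GRP1 and GRP2/MP3 that held Tlr7 at 4.38 to 56.6 RPKM held Tlr8 at 0 to 0.0570 RPKM. Tlr9, which senses unmethylated CpG DNA (chromosome 9, 106222598 to 106226883, plus strand), was 1.67 to 2.02 RPKM in batch 3 and at most 0.0478 RPKM in batches 1 and 2. In BNAP/GRP1 of batch 4, Tlr8 was 7.76 RPKM and Tlr9 11 RPKM. These values lay above 49.2% and 80.4% of the olfactory receptor genes of that library. In the same library, Tlr7 lay above 90.3% of the olfactory receptor genes, Tlr4 above 74.9%, Tlr2 above 54.7%, Tlr1 above 52.6%, Tlr6 above 38.0% and Tlr13 above 18.4%, so most receptor values of BNAP/GRP1 in batch 4 lay within that background.

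**Figure D2:**
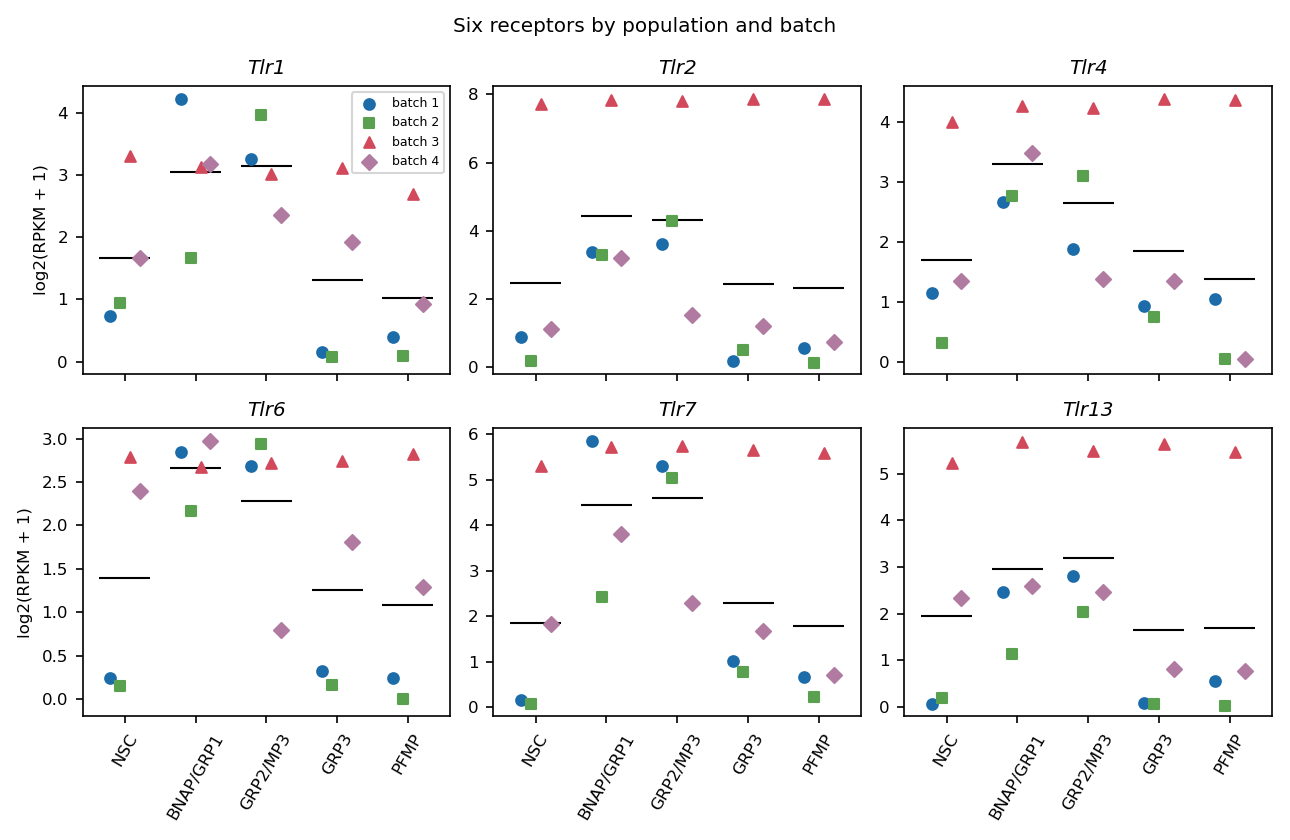
Level of Tlr1, Tlr2, Tlr4, Tlr6, Tlr7 and Tlr13 as log2(RPKM + 1) in each population, with 1 point per library, coloured and shaped by batch, and a line at the mean of the 4 batches. In batches 1 and 2 (circles and squares) all 4 points of BNAP/GRP1 and GRP2/MP3 lie above the 6 points of the other populations, and batch 3 (triangles) stands high in all 5.

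Over all 4 batches, the order of the population means on the log2 scale put BNAP/GRP1 and GRP2/MP3 first for 7 receptors, Tlr1, Tlr2, Tlr4, Tlr5, Tlr6, Tlr7 and Tlr13. For Tlr3 the order was GRP2/MP3, NSC, BNAP/GRP1, PFMP and GRP3. For Tlr8 GRP2/MP3 came last, and for Tlr9 it came after GRP3 and NSC, with BNAP/GRP1 first in both. In every one of these orders, the ranges of all 4 pairs of neighbours overlapped. The means of neighbours differed by less than 1 SD for 3 of the 4 pairs of Tlr1, where BNAP/GRP1 (3.05 ± 1.06, SD of log2 values, n = 4) and NSC (1.66 ± 1.17) lay further apart.

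Compared with NSCs over all 20 libraries, no receptor passed the threshold in BNAP/GRP1, where 0.760% of all genes tested did, nor in GRP2/MP3, where 1.12% did, and 0 of 10 had an unadjusted p under 0.05 in either (limma). The same held for GRP3 (1.05% of genes called), for PFMP (1.14%) and for the mean of the 4 progenitors (1.98%), each with 0 of 10 receptors past the threshold and 0 at an unadjusted p under 0.05. The largest differences were those of Tlr7, 2.61 ± 1.35 (log2, SE) in BNAP/GRP1 with an adjusted p of 0.866 and 2.75 ± 1.35 in GRP2/MP3 with an adjusted p of 0.908. Tlr2 followed with 1.95 ± 1.98 and 1.83 ± 1.98. The standard errors here include the batch 3 libraries. The median difference of the 10 receptors was 1.14 in BNAP/GRP1 beside 0.38 over all genes tested, and 0.92 in GRP2/MP3 beside -0.08. It was -0.02 in GRP3 beside 0.05 and -0.26 in PFMP beside -0.20, so in these 2 populations the receptors stood close to the table as a whole.

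The batch numbers pair the libraries, so each difference was also read within batches. BNAP/GRP1 stood above NSC in 4 of 4 batches for 5 receptors, Tlr2, Tlr4, Tlr5, Tlr7 and Tlr13, and 9.35% of all genes tested did so. For Tlr7 the difference (log2) was 5.70, 2.36, 0.42 and 1.98 in batches 1 to 4, and for Tlr2 it was 2.50, 3.08, 0.13 and 2.09. Both were smallest in batch 3. In batch 4 the median of this difference over all genes tested was 1.53, and Tlr7 lay 0.45 and Tlr2 0.56 above that median, whereas Tlr13 lay 1.29 below it (-1.29). The median was 0 in batches 1 to 3. GRP2/MP3 stood above NSC in 4 of 4 batches for 4 receptors, Tlr2, Tlr4, Tlr7 and Tlr13, beside 4.76% of genes tested. Here Tlr7 differed by 5.15, 4.99, 0.42 and 0.44, beside a median over all genes of -0.29 in batch 4, so the large differences were those of batches 1 and 2. GRP3 had no receptor above or below NSC in all 4 batches. In PFMP, Tlr1 lay below NSC in 4 of 4, as did 12.3% of genes tested.

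With the batch as a replicate block, still 0 of 10 receptors passed the threshold against NSC, where 2.09% of genes were called in BNAP/GRP1 and 3.08% in GRP2/MP3, and 4 receptors had an unadjusted p under 0.05 in each (limma). Tlr7 had an adjusted p of 0.0846 in GRP2/MP3 and 0.13 in BNAP/GRP1. When libraries were left out, the genes tested were kept at the 27614 of the 20-library filter, a choice made after seeing the data, because most receptors passed a filter on the remaining libraries through the populations where they were high. With batch 3 left out and the block kept, 0 of 10 receptors passed in BNAP/GRP1 (1.66% of genes called) or GRP2/MP3 (2.70%), and 5 and 4 had an unadjusted p under 0.05 (limma). Tlr7 differed by 3.35 ± 0.91 in BNAP/GRP1 (adjusted p = 0.0885) and by 3.53 ± 0.91 in GRP2/MP3 (adjusted p = 0.0535).

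Batches 1 and 2 alone, also chosen after seeing the data, left 10 libraries. With the replicate block, 1 receptor rose in BNAP/GRP1, where 0.420% of genes did, and 2 in GRP2/MP3, where 0.808% did. Tlr6 was higher by 2.31 ± 0.36 in BNAP/GRP1 (adjusted p = 0.0421) and by 2.62 ± 0.36 in GRP2/MP3 (adjusted p = 0.0261). Tlr2 was higher in GRP2/MP3 by 3.41 ± 0.50 (adjusted p = 0.0323) and missed the threshold in BNAP/GRP1 at 2.79 ± 0.50 (adjusted p = 0.0616). Tlr7 had the largest differences, 4.03 ± 0.95 and 5.07 ± 0.95, and missed it in both (adjusted p = 0.119 and 0.0595), as did Tlr13 in GRP2/MP3 (2.29 ± 0.42, adjusted p = 0.0581). No receptor differed by more than 0.78 from NSC in GRP3 or PFMP on this scale.

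The progenitors were then compared with each other, which leaves the NSC libraries out of the contrast. Without a batch term, the mean of BNAP/GRP1 and GRP2/MP3 lay above the mean of GRP3 and PFMP for 10 of 10 receptors, with a median difference of 1.33 beside 0.22 over all genes tested, where 17605 of 27614 genes were positive. No gene in the table passed the threshold in this contrast (0% called), and 3 receptors, Tlr1, Tlr6 and Tlr7, had an unadjusted p under 0.05. With the replicate block, 3 receptors were called, where 0.999% of genes tested rose. These were Tlr2 (1.98 ± 0.45, adjusted p = 0.0415), Tlr7 (2.49 ± 0.58, adjusted p = 0.0428) and Tlr1 (1.93 ± 0.46, adjusted p = 0.0455). Tlr13 (1.41 ± 0.36, adjusted p = 0.0573) and Tlr4 (1.36 ± 0.39, adjusted p = 0.0916) missed the threshold.

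With batch 3 left out, the replicate block kept and the same 27614 genes, 5 of 10 receptors rose, where 1.80% of genes did. Tlr7 was higher by 3.28 ± 0.64 (adjusted p = 0.0121, limma) and Tlr2 by 2.66 ± 0.52 (adjusted p = 0.0116). Tlr1 was higher by 2.51 ± 0.54 (adjusted p = 0.0209), Tlr13 by 1.87 ± 0.43 (adjusted p = 0.0301) and Tlr4 by 1.85 ± 0.47 (adjusted p = 0.0478). Tlr6 was higher by 1.77 ± 0.55 and missed the threshold (adjusted p = 0.125), as did Tlr3 at 1.16 ± 0.45 and Tlr5 at 0.79 ± 0.44. Tlr8 and Tlr9 gave 0.18 ± 0.41 and 0.56 ± 0.41. In batches 1 and 2 alone with the block, 3 receptors rose, where 1.50% of genes did. They were Tlr6 (2.48 ± 0.25, adjusted p = 0.0221), Tlr2 (3.29 ± 0.36, adjusted p = 0.0244) and Tlr13 (1.93 ± 0.30, adjusted p = 0.0428). Tlr7 (3.99 ± 0.67, adjusted p = 0.051), Tlr1 (3.10 ± 0.61, adjusted p = 0.0722) and Tlr4 (1.91 ± 0.46, adjusted p = 0.113) missed the threshold there.

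**Figure D3:**
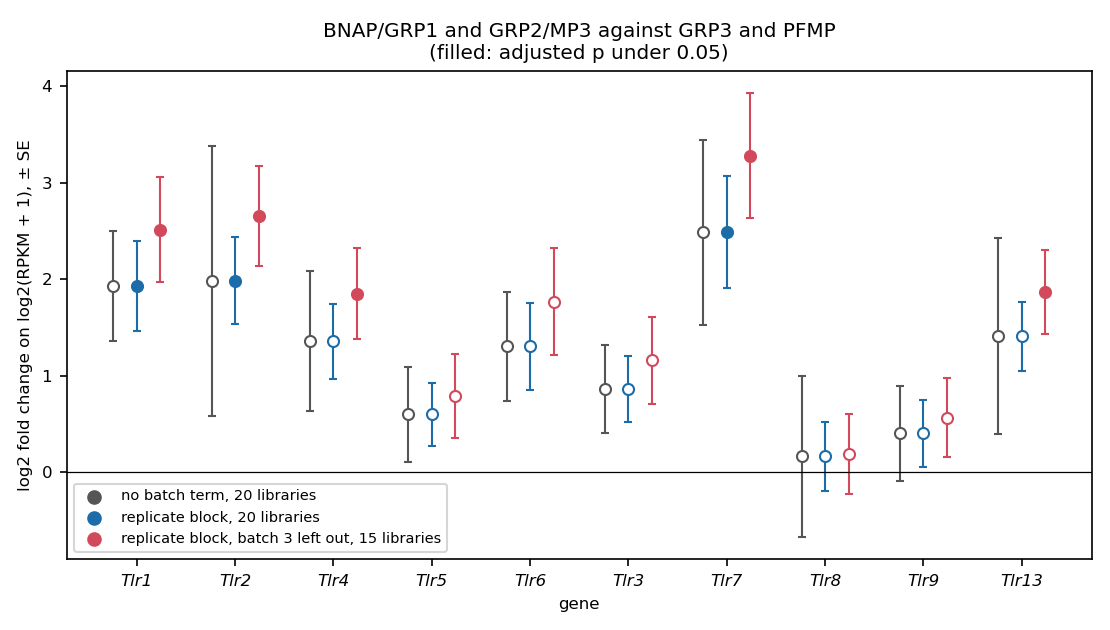
Difference between the mean of BNAP/GRP1 and GRP2/MP3 and the mean of GRP3 and PFMP for each receptor, on the log2(RPKM + 1) scale with SE, in 3 fits by colour; filled points passed an adjusted p of 0.05. The points without a batch term are all open, 3 are filled with the replicate block, and 5 with batch 3 left out.

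Within batches, this difference was positive in 4 of 4 for 3 receptors, Tlr1, Tlr7 and Tlr13, beside 8.21% of genes tested. For Tlr7 it was 4.74, 3.25, 0.11 and 1.85 in batches 1 to 4. For Tlr1 it was 3.46, 2.73, 0.17 and 1.34. Tlr2 gave 3.13 and 3.46 in batches 1 and 2, -0.03 in batch 3 and 1.38 in batch 4. Batch 3 was close to 0 for each of these receptors. In batch 4 the median of this difference over all genes tested was 0.95, and Tlr7 lay 0.90, Tlr2 0.43 and Tlr1 0.39 above it, whereas in batches 1 to 3 the median was -0.07, 0 and 0. Over batches 1 and 2, every library of BNAP/GRP1 and GRP2/MP3 lay above every library of GRP3, PFMP and NSC for 6 receptors, Tlr1, Tlr2, Tlr4, Tlr6, Tlr7 and Tlr13, and for 3.10% of genes tested. With batch 4 added this held for 3, Tlr2, Tlr4 and Tlr7, and for 0.663% of genes.

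In the 6 direct comparisons of single progenitors, no receptor passed the threshold without a batch term (0% of tests called), and 4 tests of receptors had an unadjusted p under 0.05 (limma). In batches 1 and 2 alone with the replicate block, 0 tests of receptors passed, where 0.0579% of all tests did (limma). Of the 10 receptors, 6 had an unadjusted p under 0.05 in GRP2/MP3 against GRP3 and 7 in GRP2/MP3 against PFMP. For BNAP/GRP1, 6 did so against GRP3 and 6 against PFMP. No share of all genes stands beside these unadjusted counts, and the 2 batches were chosen after seeing the data. The counts are a description only. The lowest adjusted p was that of Tlr6 in GRP2/MP3 against GRP3 (2.58 ± 0.36, adjusted p = 0.0668). For BNAP/GRP1 against GRP2/MP3 and for GRP3 against PFMP, 0 of 10 receptors had an unadjusted p under 0.05.

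The mixture of receptors differed between batch 3 and the other high libraries. Tlr2 made up 59.6 to 63.4% of the summed receptor level in the 5 libraries of batch 3, and Tlr7 11.8 to 14.3%. In the BNAP/GRP1 and GRP2/MP3 libraries of batches 1 and 2, Tlr2 made up 9.14 to 32.0% and Tlr7 16.1 to 54.9%. The ratio of Tlr2 to Tlr7 was 4.27 to 5.37 in batch 3 and 0.166 to 1.98 in those 4 libraries, and the ranges did not overlap. Tlr7 led Tlr2 in 3 of the 4, and Tlr2 led in BNAP/GRP1 of batch 2. In batch 4, the ratio was 0.485 to 0.625 in BNAP/GRP1 and GRP2/MP3. Within its library, Tlr2 ranked above 98.8 to 98.9% of all genes in batch 3. In the 4 high libraries of batches 1 and 2, Tlr2 ranked above 85.6 to 90.4%. Tlr7 ranked above 94.4 to 95.9% in batch 3 and above 77.9 to 96.1% in those 4 libraries, with overlap.

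**Figure D4:**
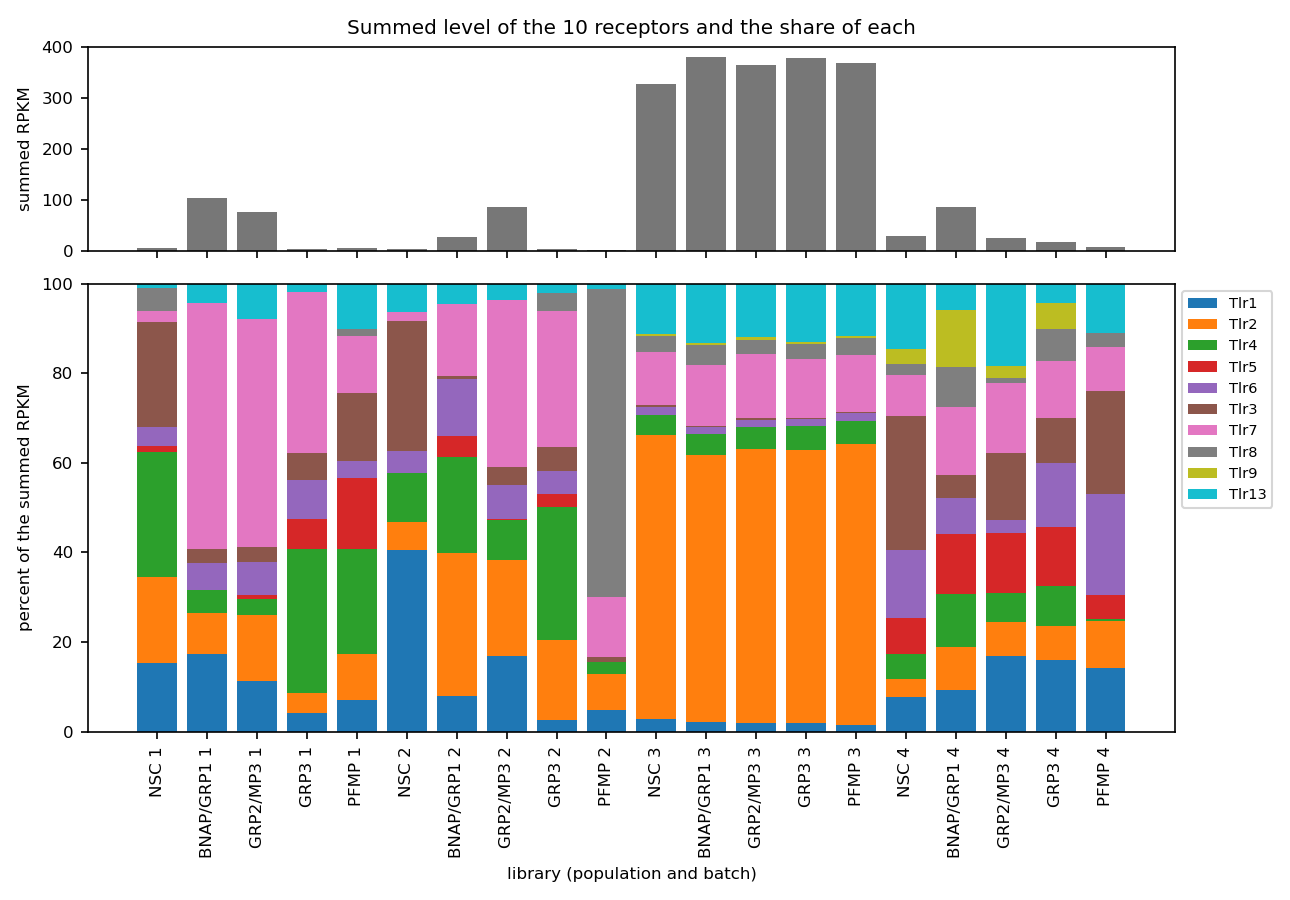
Summed RPKM of the 10 receptors in each library (upper bars) and the percent of that sum held by each receptor (lower stacked bars), by batch and population. Batch 3 has the highest sums, 328 to 382 RPKM, with Tlr2 the main part in all 5 libraries, whereas Tlr7 exceeds Tlr2 in 3 of the 4 BNAP/GRP1 and GRP2/MP3 libraries of batches 1 and 2.

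Markers of immune cells moved with the receptors. The summed level of 18 microglial genes was 4194 to 15622 RPKM in BNAP/GRP1 and GRP2/MP3 of batches 1 and 2, against 31.5 to 66.8 RPKM in NSC, GRP3 and PFMP of the same batches. In batch 4, it was 253 to 1016 RPKM in BNAP/GRP1 and GRP2/MP3 and 62.1 to 173 RPKM in the other populations. P2ry12, a purine receptor that defines microglia, was 64.7 to 1101 RPKM in the 4 high libraries of batches 1 and 2, and Tmem119 was 23.1 to 91.3 RPKM. In batch 3 the sum was 4057 to 4511 RPKM, but P2ry12 was 0.915 to 1.49 RPKM, Tmem119 0.687 to 1.10 RPKM and Sall1 0 to 0.385 RPKM, while Tyrobp, a signalling adaptor of myeloid cells in general, was 1320 to 1464 RPKM. Of the 18 genes, 10 were lower in all 5 libraries of batch 3 than in all 4 BNAP/GRP1 and GRP2/MP3 libraries of batches 1 and 2, 2 were higher and 6 overlapped. In batch 3, 8 of the 18 were at most 3 RPKM in every library.

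Other marker lists moved as well. Border macrophage genes summed to 64.3 to 2485 RPKM in BNAP/GRP1 and GRP2/MP3 of batches 1 and 2 and to 0.708 to 4.44 RPKM in the other populations of those batches. For the 4 B cell genes the ranges were 15.7 to 42.5 RPKM and 0.849 to 4.64 RPKM. Monocyte genes were 3.24 and 5.12 RPKM in BNAP/GRP1 and 94.9 and 141 RPKM in GRP2/MP3, against 0.793 to 5.30 RPKM. Neutrophil genes were 14.3 to 71.3 RPKM against 1.94 to 16.4 RPKM, and the list of alveolar macrophage genes was 692 to 3282 RPKM against 337.7 to 814 RPKM, both with overlap. Pericyte genes separated the 2 populations, at 8.51 and 40.1 RPKM in BNAP/GRP1 and 448 and 509 RPKM in GRP2/MP3, against 3.52 to 33.9 RPKM in the others. In batch 3 the sums were 1673 to 2016 RPKM for border macrophages, 401 to 434 RPKM for B cells, 916 to 1049 RPKM for monocytes, 178 to 213 RPKM for neutrophils, 2562 to 2920 RPKM for alveolar macrophages and 116 to 130.4 RPKM for pericytes. The part of such cells in the receptor levels was not tested.

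The pathway around the receptors was described with 42 further genes, of which 41 were tested. Tlr11 was not tested, and Tlr12, the other family member, was 6.12, 17.4, 0.0519 and 8.04 RPKM in GRP2/MP3 and at most 0.159 RPKM in batch 3. Of the 5 genes of co-receptors, Cd14, which hands lipopolysaccharide to Tlr4, was 86.7, 41.0, 1523 and 6.34 RPKM in BNAP/GRP1 and 85.3, 61.1, 1534 and 66.9 RPKM in GRP2/MP3. It was 0.0709 to 1.22 RPKM in the other populations of batches 1 and 2. In batch 4, Cd14 was 23.1 RPKM in PFMP, above BNAP/GRP1, and 1.58 RPKM in GRP3 and 1.64 RPKM in NSC. Ly86, the partner of the receptor homologue Cd180, was 1397, 513, 126 and 4.49 RPKM in BNAP/GRP1, and 1056, 506, 116 and 10.6 RPKM in GRP2/MP3. Unlike Tlr2 and Cd14, it was lower in batch 3 than in the BNAP/GRP1 and GRP2/MP3 libraries of batches 1 and 2. Unc93b1, which carries the endosomal receptors from the endoplasmic reticulum, was 74.5, 16.1, 207 and 8.44 RPKM in BNAP/GRP1 and 33.3, 48.0, 199 and 10.5 RPKM in GRP2/MP3. In the other 3 populations of batches 1 and 2 it was 0.609 to 1.33 RPKM.

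In the contrast of the mean of BNAP/GRP1 and GRP2/MP3 with the mean of GRP3 and PFMP, 0 of 41 pathway genes were called without a batch term and 6 had an unadjusted p under 0.05 (limma), all higher. With the replicate block, 6 of 41 rose and 0 fell, beside the 0.999% of all genes that rose. They were 4 of the 5 co-receptor genes, Ly86 (4.25 ± 0.90, adjusted p = 0.0377), Cd14 (3.21 ± 0.74, adjusted p = 0.0422), Cd180 (2.75 ± 0.56, adjusted p = 0.0377) and the Tlr4 partner Ly96 (1.80 ± 0.41, adjusted p = 0.0415), with Unc93b1 (2.49 ± 0.56, adjusted p = 0.0415) and the transcription factor Irf5 (2.10 ± 0.46, adjusted p = 0.0399). The 6 adaptors, 13 kinases and ligases and 6 inhibitors had 0 calls, with 3, 1 and 2 genes at an unadjusted p under 0.05. The median difference was 2.75 for the co-receptor genes and -0.24 for the kinases and ligases, beside 0.22 over all genes tested.

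The most abundant gene of each other pathway list was present in every population. Hsp90b1, a chaperone of many receptors, was 90.1 to 178 RPKM in NSC, GRP3 and PFMP of those batches and 50.3 to 210 RPKM in BNAP/GRP1 and GRP2/MP3. Ikbkb, a kinase that activates NF-kappaB, was 13.4 to 32.8 RPKM and 18.8 to 41.6 RPKM in the same libraries. These ranges overlapped. Myd88, the common adaptor, was 12.8 and 4.53 RPKM in BNAP/GRP1 and 8.85 and 12.7 RPKM in GRP2/MP3, against 0.530 to 6.52 RPKM in the others, with overlap. Nfkb1, the gene of the NF-kappaB subunit p50, was highest in batch 3, at 111 to 129 RPKM, and 5.30 to 58.8 RPKM elsewhere. Nfkbia, the inhibitor that NF-kappaB itself induces, was 436 to 491 RPKM in batch 3. Outside it, batches 1 and 2 gave 77.5 to 248 RPKM in BNAP/GRP1 and GRP2/MP3 and 27.5 to 51.5 RPKM in the other populations.

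Against NSC, 1 pathway gene passed the threshold without a batch term, and it fell. Beside the shares of all genes given below, this count is not read as a result about the pathway. Lbp, the serum protein that binds lipopolysaccharide for transfer to Cd14, was 13.8, 37.2, 4.86 and 33.2 RPKM in NSC. It was 0.0473, 0.0270, 2.79 and 0.915 RPKM in PFMP, below NSC in every batch. The difference was -3.46 ± 0.82 in PFMP (adjusted p = 0.0401, limma), where 1.14% of all genes tested were called. For the mean of the 4 progenitors it was -2.83 ± 0.65 (adjusted p = 0.0206, limma), where 1.98% were called. With the replicate block Lbp also fell in GRP2/MP3 (-2.63, adjusted p = 0.0321, limma) and GRP3 (-3.01, adjusted p = 0.014). In these 2 comparisons 3.08% and 2.60% of all genes tested were called. In BNAP/GRP1, Lbp was 1.46, 0.491, 2.53 and 18.2 RPKM. The call in PFMP was lost when any 1 of the PFMP or NSC libraries of batches 1, 2 and 4 was left out. Lbp had its highest mean in NSC, whereas the receptor genes and Cd14 were at most 1.22 RPKM in NSC of batches 1 and 2.

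**Figure D5:**
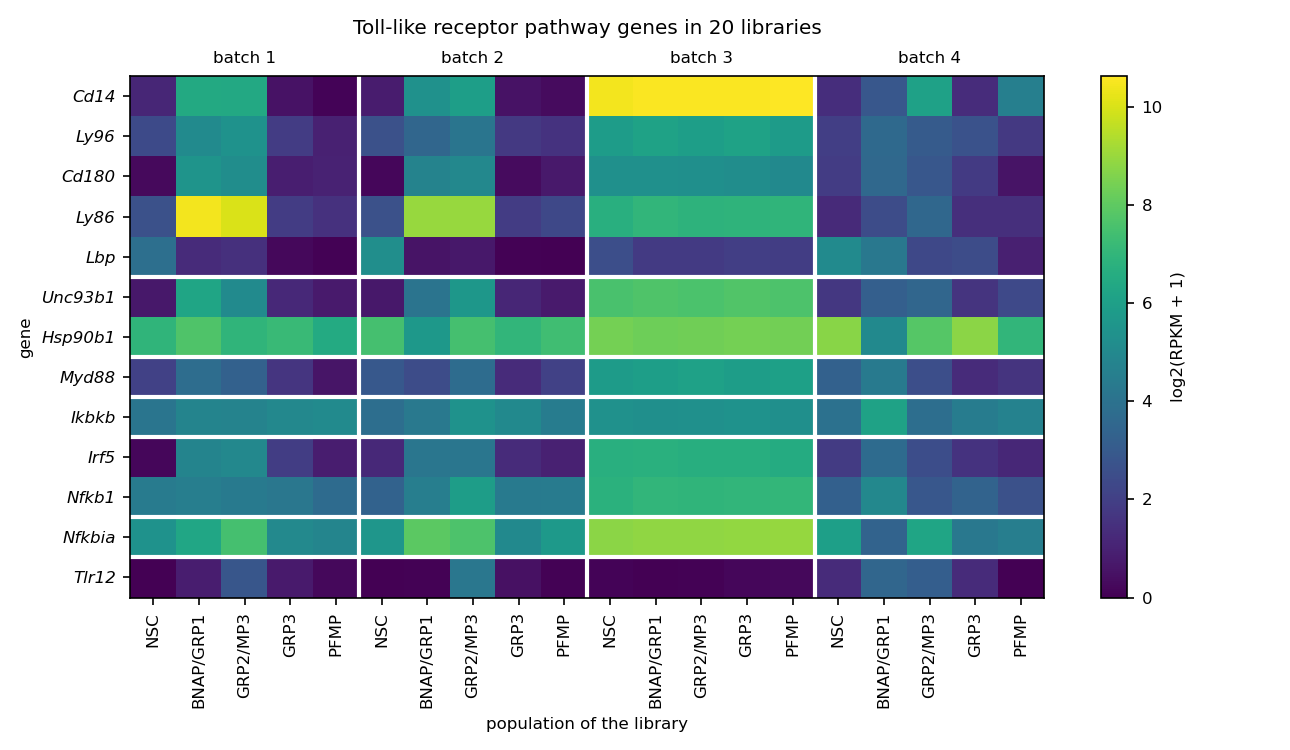
Level of 13 pathway genes as log2(RPKM + 1), shown by colour, in the 20 libraries by batch and population, with white lines between co-receptors, transport, adaptor, kinase, transcription factors, inhibitor and Tlr12. Cd14, Cd180, Ly86 and Unc93b1 were high in BNAP/GRP1 and GRP2/MP3 of batches 1 and 2 and in all of batch 3, and Lbp was high in NSC of batches 1, 2 and 4 and in BNAP/GRP1 of batch 4.

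The genes whose pattern was most like that of each receptor were named by the highest Pearson r of log2(RPKM + 1) over the 20 libraries. These r values are a description, since libraries of a batch share its features. For Tlr2 they were Bcl2a1d (0.995), Slfn2 (0.994) and Tnfrsf1b (0.992), and for Tlr7 Ms4a6b (0.989), Fblim1 (0.989) and Cd300a (0.984). For Tlr1 they were Fgd2 (0.960), Gna15 (0.958) and Tmem63a (0.953), for Tlr6 Pik3cg (0.959), BE692007 (0.955) and Gna15 (0.944), and for Tlr4 A630033H20Rik (0.983), Cytip (0.975) and Cyb5r1 (0.968). Gna15 thus stood near both Tlr1 and Tlr6. For Tlr13 they were Fcgr2b (0.983), Fermt3 (0.976) and Ncf4 (0.975). Tlr8 lay nearest to Gbgt1 (0.990), Iglv3 (0.989) and Scgb3a2 (0.988), and Tlr9 to Zscan25 (0.990), Fam83f (0.990) and Tnfrsf8 (0.987). Scgb3a2 is a secretory gene of the airways, high in batch 3. The nearest genes of Tlr5 were Gm28323 (0.982), Gm37869 (0.979) and Gm13247 (0.978), and Tlr3 had no neighbour above 0.830, the value of Rnase12, followed by Abcd2 (0.827) and Gpr157 (0.822). Over the 15 libraries outside batch 3, the nearest genes of Tlr8 were others, Rap1gapos (0.984), Xkr5 (0.983) and Gm17080 (0.979), whose r over 20 libraries was 0.144, 0.0148 and 0.298, and those of Tlr9 were Gm22219, Lpar5 and Olfr637-ps1. The nearest gene was then Il10ra for Tlr2 (0.986), Fcgr4 for Tlr7 (0.988), Ms4a6b for Tlr1 (0.968), Selplg for Tlr6 (0.956), Rab3il1 for Tlr13 (0.957) and Trim21 for Tlr3 (0.899), and it was the same as over 20 libraries for Tlr4 and Tlr5.

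Among the receptors themselves, the 15 pairs of Tlr1, Tlr2, Tlr4, Tlr6, Tlr7 and Tlr13, a set chosen after its values were seen, had r of 0.735 to 0.957 over the 20 libraries and 0.693 to 0.943 over the 15 libraries outside batch 3. Tlr2 and Tlr7 had r of 0.896 and 0.923. Tlr8 was like Tlr2 over all libraries (0.845) and not outside batch 3 (0.132), whereas Tlr8 and Tlr9 had r of 0.802 and 0.949. These r values too have no test, since batch and population are shared by the points.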

How the data were processed

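Cells were sorted from pooled litters and their polyadenylated RNA was amplified before sequencing. Per the study's methods and the submitters' processing notes, reads were handled with nf-core/rnaseq, FastQC 0.11.9, cutadapt 3.4, STAR 2.6.1 (GRCm38), Salmon 1.9.0 and DESeq2 1.26.0. The authors deposited RPKM for 45705 genes in 20 libraries. Amplification before sequencing can distort low values, and the depth is unknown. The annotation release behind the RPKM is not given in the sources used here. A further 26 columns of the table were not used. Low values lay within 0.1 of a whole multiple of 1 step in 29.4 to 47.5% of cases, so reads could not be recovered.

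Values were taken as log2(RPKM + 1) of the deposited RPKM and fitted with limma 3.58.1 in R 4.3.3 (trended prior, 1 mean per population, no batch term, Benjamini-Hochberg adjustment, threshold 0.05), which was tested on simulated data. Genes needed 1 RPKM in 4 of 20 libraries. After population means were removed, libraries of batches 1 to 4 correlated within their batch with a median r of 0.337, 0.262, 0.769 and 0.581, and libraries of different batches with -0.254. The batch labels therefore pair the libraries, and the replicate block was an alternative, as were another pseudocount, other filters, 2 scalings, a prior without trend, only the groups compared, and libraries or batches left out, with the filter applied again or, chosen after seeing the data, kept at the genes of the 20-library filter. Named were all receptors, the pathway genes past the threshold without a batch term or with the block, the most abundant gene of each pathway list, Tlr11, and the 3 genes nearest to each receptor. The receptors and lists were chosen with earlier results of these data known. Positions are those of GENCODE vM21. Python 3.11.15 and matplotlib 3.10.9 drew the figures.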

Additional observations from a re-analysis of the deposited data

Results flagged for a closer look

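Of 50 groups of 4 libraries (10 receptors in 5 populations), 14 had a highest or lowest library whose gap to the nearest other, divided by the range of the group, exceeded Dixon's 95% critical value. Chance gives about 1 in 20 such groups. In 10 of them it was the batch 3 library, standing high. For Tlr2 this share of the range was 0.961 in BNAP/GRP1, 0.864 in GRP3, 0.92 in PFMP and 0.877 in NSC. For Tlr13 it was 0.867 in GRP3 and 0.863 in PFMP. It was 0.836 for Tlr4 in GRP3, 0.909 for Tlr7 in PFMP, 0.913 for Tlr8 in GRP2/MP3 and 0.99 for Tlr9 in PFMP. In the other 4 it was the batch 4 library. Tlr5 stood high in GRP3 (0.905) and NSC (0.954), Tlr3 stood high in NSC (0.881), and Tlr6 stood low in GRP2/MP3 (0.882).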

How the results depend on the processing

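Without a batch term, 0 receptors were called in each comparison, and no leave-one-out fit changed that. Other counts came with batches left out or blocked; some of these settings were chosen after seeing the data. Each count stands beside the percent of all genes called in the same fit. Where the filter was applied again to batches 1 and 2, Tlr1, Tlr2, Tlr6 and Tlr13 passed it through BNAP/GRP1 and GRP2/MP3 alone, so those counts support nothing. Against NSC in BNAP/GRP1, 3 receptors were called in batches 1 and 2 alone (5.51%), 3 with the replicate block added (3.61%) and 1 with the genes of the 20-library filter (3.01%). In GRP2/MP3 the counts were 4 (6.88%), 4 (5.04%) and 2 (3.86%) there. With batch 3 left out and the block it was 1 (2.96%), Tlr7 at an adjusted p of 0.0442, and 1 without BNAP/GRP1 of batch 4 too (5.40%), but 0 with the genes of the 20-library filter, where Tlr7 had 0.0535. For the 2 pairs of progenitors, 3 were called with the block (1.44%), 4 without batch 3 (2.23%), 5 with the block as well (3.20%), 5 of the 20-library filter (2.80%), and 5 without BNAP/GRP1 of batch 4 too (4.80%). In batches 1 and 2 alone they were 6 (12.6%), 6 with the block (9.62%) and 3 of the 20-library filter (3.12%). The direct comparisons gave 13 calls in batches 1 and 2 alone (2.87%) and 8 with the block (1.59%), but 0 of the 20-library filter. For GRP3, PFMP and the mean of the progenitors, receptors stayed at 0 in all fits run.

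Pathway genes moved likewise. In BNAP/GRP1, 0 became 3 without batch 3, 4 with the replicate block as well (3 of the 20-library filter), 7 in batches 1 and 2 alone with or without the block (5 of the 20-library filter), and 6 without batch 3 and BNAP/GRP1 of batch 4, where 1.23 to 5.51% of genes were called. In GRP2/MP3, 0 became 1 with quantile normalization, 1 with the block, 4 without batch 3, 8 with the block as well under either filter, 7 in batches 1 and 2 alone with or without it (6 of the 20-library filter), and 8 without batch 3 and BNAP/GRP1 of batch 4, where 1.60 to 6.88% were called. In GRP3, 0 became 2 in batches 1 and 2 alone, where 6.10% of genes were called. The GRP3 count was 1 with the block (2.60%), without batch 3 (1.84%), or without batch 4 and with the block. Leave-one-out fits gave 0 to 1 (1 without NSC of batch 3). In PFMP, the 1 call was lost (0) with a pseudocount of 0.1, no filter, only the groups compared or batch 4 left out, and leave-one-out fits gave 0 to 1 (0 without PFMP or NSC of batch 1, 2 or 4). The GRP3 and PFMP counts are a description and not a result about these genes. The cause of the changes in the counts was not tested.

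Over all 10 receptors, 148 of 1559 values under the alternatives changed sign, none of them past the threshold, and 56 passed it in the direction first given. Quantile normalization moved the median of all genes from 0.38 to 0.09 in BNAP/GRP1 against NSC and that of the receptors from 1.14 to 0.55. A fit of only the groups compared was not run for the mean of the progenitors, where it would leave out no library. RPKM without read totals do not show which low values rest on few reads.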
